A study of Mus musculus with 9 samples.

Results

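Chromatin accessibility was measured by ATAC-seq at 9 genes of the neural lineage in mouse embryonic stem cells. The genes were Pax6, Pax3, Sox1, Neurog2, Pou3f2, Meis1, Meis2, Nes and Map2. They were represented by 127 of the 157497 regions counted in the study, namely the regions that lie in, or within 50 kb of, the RefSeq GRCm38 span of one of these genes and have it as their nearest protein-coding gene. The rule for regions uses position only, while the genes were named with earlier results of these data known. The 9 libraries fall into 3 groups of 3, labelled NanogKO (clone code 44C6), NanogKO:Esrrb (44J) and NanogKO:Esrrb:Nanog (44JN). The cell line field reads N{delta} for NanogKO and N{delta}:cE:iN for each of the other 2 groups. All cells were untreated, were grown in 10% serum with LIF at 1000 U per ml, and were sorted as PECAM-positive and PDGFRA-negative. Each genotype has 1 code, so a difference between genotypes and a difference between clones cannot be told apart. Nothing in the labels says whether the 3 libraries of a group came from separate cultures. The p-values set group differences against the spread between these libraries only, and that spread may be technical.

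ATAC-seq uses a transposase that inserts into open DNA, so a region with more reads was open in more cells or open more often in each cell. Those cases cannot be told apart in bulk cells. NANOG and ESRRB are both transcription factors that sustain the self-renewing embryonic stem cell, and cells without Nanog can be kept as stem cells but drift toward differentiation more readily. The neural genes are largely silent in embryonic stem cells and come on as cells become neuroectoderm, neural progenitors and neurons. Many developmental genes of this kind have CpG-rich starts that are already open in stem cells, while their distant elements open later.

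The libraries held 35545030 to 58520948 counts, of which 0.0886% to 0.105% fell in the 127 regions. The median count of a region of these genes was 159 to 276 per library. All 127 regions passed the filter on low counts. The first principal component of all regions took 63.6% of the variance and separated the groups, and on the second NanogKO:Esrrb:Nanog replicate 3 (-5.5) lay apart from replicates 1 and 2 of its group (-87.6 and -101.4). The span of Nanog held 1 counted region, with 37, 51 and 77 counts in NanogKO, 152, 229 and 231 in NanogKO:Esrrb, then 205, 153 and 357 in NanogKO:Esrrb:Nanog. The sources used here do not say which part of Nanog was removed, so these counts do not check the genotypes. Regions at 10 stem cell genes such as Pou5f1, Sox2 and Klf4 summed to between 1183 and 1675 CPM, that is, counts scaled to library size, in all 9 libraries. That sum was 1183 to 1211 in NanogKO, 1461 to 1599 in NanogKO:Esrrb, then 1588 to 1675 in NanogKO:Esrrb:Nanog.

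Each gene had at least 2 regions. Meis2 had 28, Meis1 and Sox1 had 22 each, Pax6 had 16, Pax3 had 11, Pou3f2 had 10, Map2 and Neurog2 had 8 each, and Nes had 2. Of the 127 regions, 64 lay in a gene span and 63 outside, so 50.4% were in a span against 55.6% of all regions. Counts summed per gene are scaled to the counts in regions within 50 kb of any gene. Per kb of region, the intermediate filament gene Nes was the most accessible in NanogKO, at 32.4 ± 1.6 CPM per kb (SD, n = 3), followed by the proneural gene Neurog2 at 26.5 ± 0.75. Pou3f2 (18.9 ± 0.12), Sox1 (18.6 ± 1.1) and Pax6 (17.9 ± 0.70) came next and were separated by less than the spread of Sox1. Meis2 stood at 16.3 ± 1.5, and Map2 (14.5 ± 0.80), Meis1 (14.2 ± 0.35) and Pax3 (13.7 ± 1.7) were not separated beyond the spread of Pax3. Nes and Neurog2 kept the first and second places, and Sox1 took the third, in NanogKO:Esrrb (31.7, 22.0 and 20.2 CPM per kb) and in NanogKO:Esrrb:Nanog (37.2, 25.3 and 21.5).

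**Figure D1:**
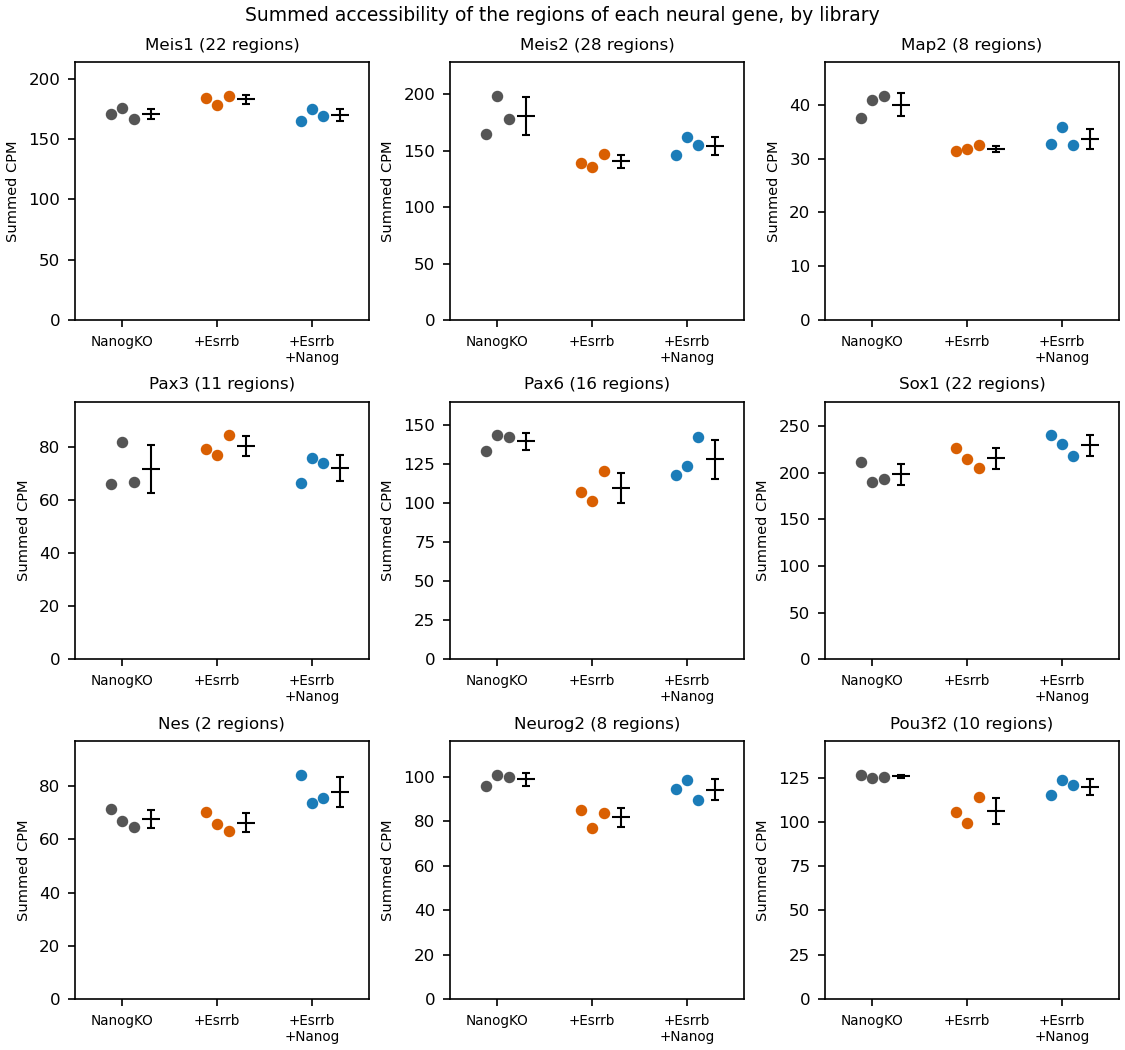
Counts summed over the regions of each of the 9 genes, as CPM on an axis from 0, with 1 point per library and the mean ± SD of each group beside its points; +Esrrb and +Esrrb +Nanog stand for NanogKO:Esrrb and NanogKO:Esrrb:Nanog. The NanogKO:Esrrb points of Meis2, Map2, Pax6, Neurog2 and Pou3f2 lie below all NanogKO points, while those of Meis1 lie above.

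The comparison of NanogKO:Esrrb with NanogKO sets cells with the added Esrrb label against cells without it. At the neural genes more regions were lower than higher. Of the 127 regions, 36 were lower (28.3%) and 15 were higher (11.8%) at an adjusted p below 0.05, while among all 157439 regions tested 17% were lower and 20% were higher. The median log2 fold change of the 127 was -0.22 against -0.01 for all regions, and 92 of the 127 were negative. On counts summed per gene, Meis2, Map2, Pax6, Neurog2 and Pou3f2 fell and none of the 9 rose, where 16.9% of all 18905 genes fell and 17.6% rose (34.5% in all). The count of lower regions was 22 without NanogKO replicate 2 and 21 without NanogKO:Esrrb replicate 2. Of the 51 calls, 29 held in all 9 fits that left out a library.

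Between NanogKO:Esrrb:Nanog and NanogKO the calls were even, at 30 regions higher and 30 lower. Over all regions 24.9% were higher and 24.4% lower, so the share of the neural regions called in each direction (23.6%) was near the background. The median was -0.07 against -0.01 for all regions. On summed counts Sox1 and Nes rose and Meis2 and Map2 fell, with 24.4% of all genes higher and 24.1% lower (48.4% in all), and without NanogKO replicate 2 only 1 of the 9 genes was called. Scaling by library totals alone lowers the median of all regions by about 0.1, to -0.10, and under it 21 of the neural regions were higher and 41 lower.

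From NanogKO:Esrrb to NanogKO:Esrrb:Nanog the calls at the neural regions were mostly higher, with 26 higher (20.5%) and 6 lower (4.72%) against 12.6% and 12% of all regions (24.6% in either direction). The median was 0.11 against -0.01 for all regions. Pax6, Nes, Neurog2 and Pou3f2 rose on summed counts and none of the 9 fell, where 10.6% of all genes rose and 10.2% fell. These gene calls were close to the threshold, and 0 to 3 of the 4 were left when a library was left out, with 0 without NanogKO:Esrrb replicate 2. The count of higher regions was 15 without NanogKO:Esrrb replicate 2 and 17 without NanogKO:Esrrb:Nanog replicate 2. Under scaling by library totals alone, where the median of all regions was -0.11, 16 were higher and 11 lower. The 3 comparisons share their libraries in pairs, so their calls are not independent of one another.

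**Figure D2:**
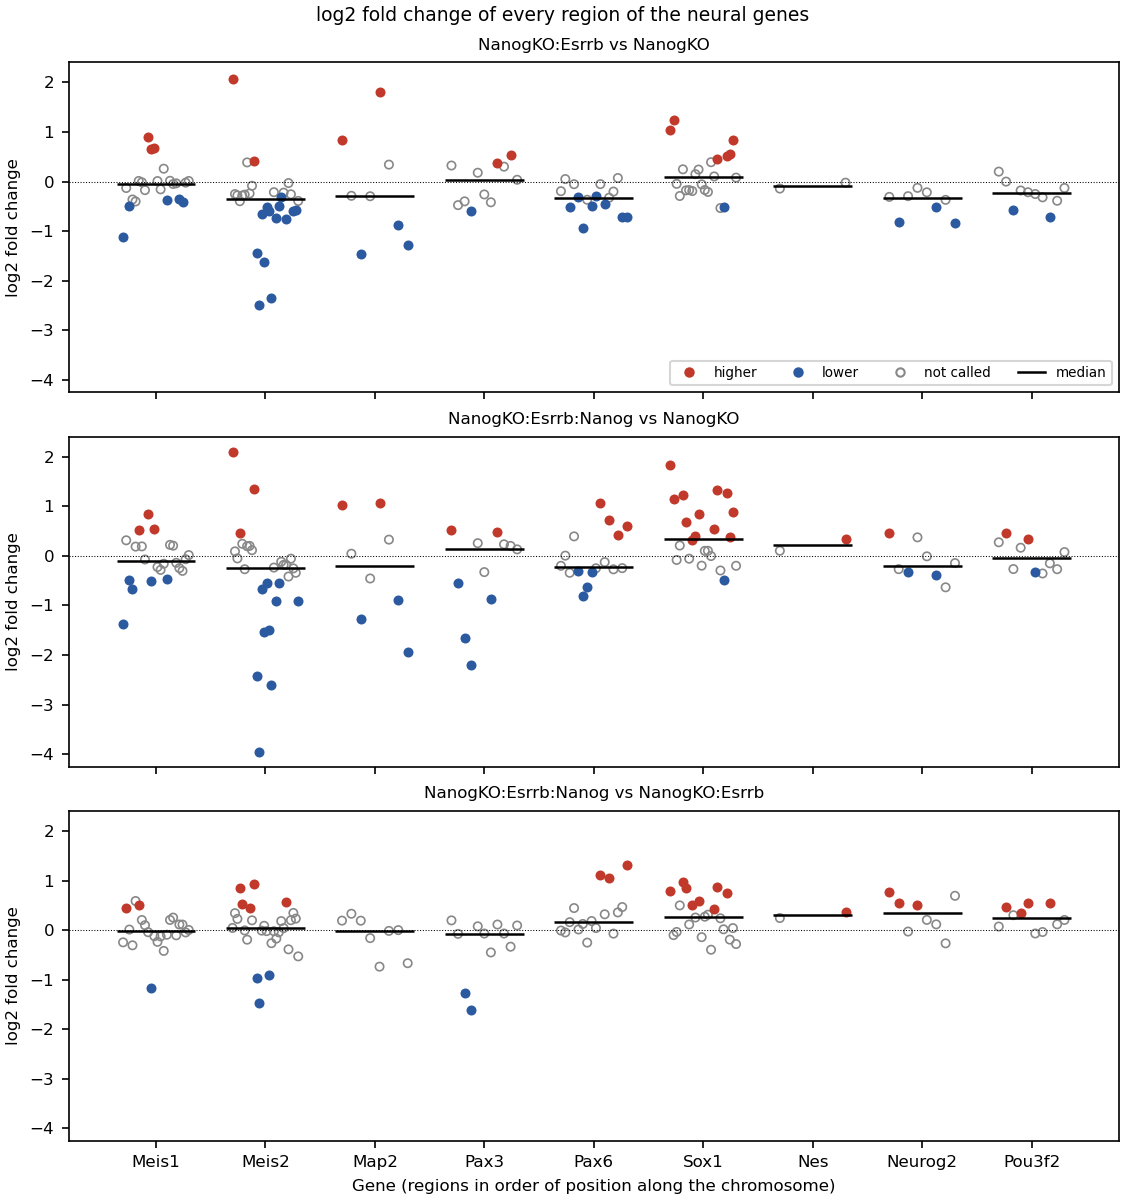
Log2 fold changes of the 127 regions by gene in the 3 comparisons, 1 point per region in chromosomal order, filled red (higher) or blue (lower) where the adjusted p was below 0.05, with the median of each gene as a line. In NanogKO:Esrrb against NanogKO the called points of Pax6, Neurog2 and Pou3f2 are all below 0, and in NanogKO:Esrrb:Nanog against NanogKO 12 of the 13 called points of Sox1 are above 0.

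The calls were also counted by position. In NanogKO:Esrrb against NanogKO, 22 of 64 regions inside a gene span were lower and 6 higher, where 16.4% of all regions in gene spans were lower and 18.1% higher. Outside the spans 14 of 63 were lower and 9 higher, where 16.9% of all regions outside a span and within 50 kb were lower and 22% higher. In NanogKO:Esrrb:Nanog against NanogKO, 20 regions inside were lower and 13 higher (21.3% and 25.2% of all), and 10 outside were lower and 17 higher (26.5% and 24.5%). In NanogKO:Esrrb:Nanog against NanogKO:Esrrb all 6 lower regions were inside a span, together with 11 higher ones, against 9.35% and 13.9% of all regions in gene spans, and the regions outside had 15 higher and 0 lower, against 11.1% and 14.5%. Of the 127 regions 88 overlapped a peak in all 3 deposited peak lists, and 9 overlapped only the NanogKO list. Those 9 had a median of 2.55 CPM in NanogKO, 1.04 in NanogKO:Esrrb, then 0.978 in NanogKO:Esrrb:Nanog, and were spread over 7 of the genes, with 3 at Meis2. The 22 regions without a NanogKO peak included 7 at Sox1, 5 at Meis2 and 4 at Meis1. Peak lists and counts come from the same reads, so this overlap is a description.

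Pax6 encodes a paired-box and homeobox factor of the neural tube, eye and forebrain. Its span is chr2:105668896-105698410 (mm10, gene 18508). Its largest decrease was at the gene start. The region over the first start, chr2:105668339-105668995, had 14.2, 13.7 and 13.4 CPM in NanogKO, 7.57, 5.79 and 8.23 in NanogKO:Esrrb, then 7.55, 7.25 and 8.68 in NanogKO:Esrrb:Nanog. Every NanogKO value exceeded every value of the other 2 groups. The log2 fold change was -0.94 ± 0.14 (SE; adjusted p = 5.3e-06) for NanogKO:Esrrb and -0.81 ± 0.14 (2.2e-05) for NanogKO:Esrrb:Nanog against NanogKO, and 0.13 (adjusted p = 0.54) between these 2. The 300 bases of RefSeq promoter sequence (GRCm38.p6, chr2:105668646-105668945, plus strand, 250 bases before the start and 50 after) lie wholly in this region and are shown because this region had the largest fold change among the 8 regions over gene starts.
Pax6: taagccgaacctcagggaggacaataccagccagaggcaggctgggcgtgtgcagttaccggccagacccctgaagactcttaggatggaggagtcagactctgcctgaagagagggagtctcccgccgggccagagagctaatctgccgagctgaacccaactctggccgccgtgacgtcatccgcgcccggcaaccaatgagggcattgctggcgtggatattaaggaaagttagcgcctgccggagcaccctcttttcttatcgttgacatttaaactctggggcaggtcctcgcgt
The window has a GC content of 58.7% and 18 CpG dinucleotides.

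Regions inside Pax6 rose from NanogKO:Esrrb to NanogKO:Esrrb:Nanog, 3 in all. The region chr2:105691268-105691634 inside the gene measured 6.39, 7.88 and 6.73 CPM in NanogKO, 4.35, 4.05 and 4.45 in NanogKO:Esrrb, then 8.90, 9.86 and 13.1 in NanogKO:Esrrb:Nanog. Thus the 3 groups did not overlap. It fell by 0.71 on the log2 scale in NanogKO:Esrrb against NanogKO (SE 0.15, adjusted p = 0.00065) and rose by 1.31 ± 0.15 from there to NanogKO:Esrrb:Nanog (1.7e-06). The region chr2:105677695-105677999, also inside the gene, measured 5.19, 5.53 and 5.80 CPM in NanogKO, 5.47, 4.22 and 6.28 in NanogKO:Esrrb, then 11.8, 9.24 and 13.5 in NanogKO:Esrrb:Nanog. Its level rose by 1.12 ± 0.16 (1.9e-05) between the last 2 groups, and its change of -0.05 between NanogKO:Esrrb and NanogKO did not pass the test (0.83). The most accessible Pax6 region, chr2:105666497-105667966, lies 930 bp outside the span and had 21.4, 21.0 and 22.0 CPM in NanogKO, 16.7, 16.3 and 18.7 in NanogKO:Esrrb, then 14.9, 18.2 and 19.1 in NanogKO:Esrrb:Nanog. It was lower in both groups than in NanogKO by 0.32 and 0.30 on the log2 scale (SE 0.12 each, adjusted p = 0.035 for both). Both calls failed when any 1 of the NanogKO libraries was left out; the first also failed without NanogKO:Esrrb replicate 1 or 2 and the second without NanogKO:Esrrb:Nanog replicate 1, with adjusted p up to 0.12 and 0.18.

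Over its 16 regions, Pax6 had 133, 143 and 142 CPM in NanogKO, 107, 101 and 120 in NanogKO:Esrrb, then 118, 124 and 142 in NanogKO:Esrrb:Nanog. All NanogKO:Esrrb values were below all NanogKO values, and NanogKO:Esrrb:Nanog overlapped both. The sum fell by 0.35 ± 0.07 (adjusted p = 0.0011) in NanogKO:Esrrb, where 8 regions were lower and none higher (17% and 20% of all regions). Against NanogKO:Esrrb it was higher in NanogKO:Esrrb:Nanog by 0.22 ± 0.07 (0.038), with 3 regions higher and none lower (12.6% and 12% of all regions). This last call failed without any 1 of NanogKO replicates 2 and 3, NanogKO:Esrrb replicates 1 and 2, and NanogKO:Esrrb:Nanog replicates 2 and 3, with adjusted p up to 0.14. The change from NanogKO to NanogKO:Esrrb:Nanog was -0.12 ± 0.07 (0.17) and passed without NanogKO:Esrrb:Nanog replicate 3 (-0.21, 0.018).

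Pax3, a paired-box factor of the dorsal neural tube and neural crest, spans chr1:78101267-78197136 (gene 18505). A region inside the gene, chr1:78181884-78182221, closed in steps. It had 4.59, 5.92 and 4.52 CPM in NanogKO, 3.86, 2.66 and 3.50 in NanogKO:Esrrb, then 1.16, 1.11 and 1.02 in NanogKO:Esrrb:Nanog, with no overlap between groups. NanogKO:Esrrb:Nanog was 4.57-fold lower than NanogKO (log2 -2.19 ± 0.20, adjusted p = 1.3e-09) and 3.04-fold lower than NanogKO:Esrrb (-1.60 ± 0.21, 5.6e-06). The smaller difference of NanogKO:Esrrb from NanogKO, -0.59 ± 0.18 (0.012), failed without NanogKO replicate 2 or NanogKO:Esrrb replicate 2 (adjusted p up to 0.10).

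Against NanogKO, 1 of the 11 Pax3 regions was lower in NanogKO:Esrrb and 4 in NanogKO:Esrrb:Nanog (17% and 24.4% of all regions). Against NanogKO:Esrrb, 2 were lower and none higher in NanogKO:Esrrb:Nanog (12% and 12.6%). Pax3 also had regions that rose, 2 in each comparison with NanogKO, where 20% (NanogKO:Esrrb) and 24.9% (NanogKO:Esrrb:Nanog) of all regions rose. The most accessible one, chr1:78196352-78197568, overlaps the border of the span at the higher coordinate. RefSeq gave no promoter window for Pax3, so whether this region covers the gene start was not assessed. It had 16.8, 19.6 and 15.7 CPM in NanogKO, 22.7, 20.8 and 24.1 in NanogKO:Esrrb, then 23.9, 24.9 and 24.3 in NanogKO:Esrrb:Nanog. All NanogKO values were the lowest. It rose by 0.48 ± 0.12 (adjusted p = 0.001) in NanogKO:Esrrb:Nanog and by 0.37 ± 0.11 (0.012) in NanogKO:Esrrb. The latter call failed without NanogKO replicate 3 or NanogKO:Esrrb replicate 3 (up to 0.078). The region chr1:78201260-78201874, 4124 bp outside the span, was highest in NanogKO:Esrrb with 7.41, 7.62 and 7.17 CPM, against 5.41, 5.18 and 4.74 in NanogKO (0.53 ± 0.15, 0.0056). In NanogKO:Esrrb:Nanog it had 5.20, 7.10 and 5.41 CPM, and its change from NanogKO:Esrrb was -0.33 (0.098; 0.034 without NanogKO:Esrrb:Nanog replicate 2).

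Summed over its 11 regions, Pax3 had 65.8, 81.8 and 66.8 CPM in NanogKO, 79.1, 76.8 and 84.2 in NanogKO:Esrrb, then 66.5, 75.6 and 73.7 in NanogKO:Esrrb:Nanog. NanogKO replicate 2 was far above the other NanogKO libraries and within the NanogKO:Esrrb range. The sum passed no test (adjusted p = 0.12, 0.95 and 0.17), but without NanogKO replicate 2 it was higher in NanogKO:Esrrb by 0.27 (0.015).

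Sox1 encodes a SOX-family factor that is among the earliest genes of the neuroectoderm. It has a span of only chr8:12395519-12399555 (gene 20664), and 20 of its 22 regions lie outside. Sox1 had 12 regions higher and 1 lower in NanogKO:Esrrb:Nanog than in NanogKO (24.9% and 24.4% of all regions). It had 8 higher and none lower than in NanogKO:Esrrb (12.6% and 12%). Between NanogKO:Esrrb and NanogKO, 6 were higher and 1 lower (20% and 17%). The regions of smallest p were distal. The region chr8:12431434-12432055, 31879 bp from the span, had 6.80, 5.60 and 5.51 CPM in NanogKO, 8.98, 9.09 and 7.53 in NanogKO:Esrrb, then 14.8, 12.2 and 16.1 in NanogKO:Esrrb:Nanog. The groups formed 3 separate steps, with log2 changes of 0.52 ± 0.14 (adjusted p = 0.005) for the first and 0.75 ± 0.14 (0.00034) for the second, and 1.27 ± 0.14 (2.9e-08) in all. The region chr8:12428446-12428738, at 28891 bp, had 3.46, 2.44 and 3.61 CPM, then 4.15, 4.17 and 4.66, then 7.34, 8.45 and 8.01 in the same order of groups. It too rose at each step, by 0.45 ± 0.17 (0.032) and 0.87 ± 0.16 (0.00034). Its first step failed without NanogKO replicate 2 or NanogKO:Esrrb replicate 1 or 3 (up to 0.22).

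Another distal Sox1 region was highest in NanogKO:Esrrb. This region, chr8:12438659-12440294, 39104 bp away, had 24.5, 24.0 and 23.7 CPM in NanogKO, 37.7, 36.3 and 32.6 in NanogKO:Esrrb, then 31.8, 30.1 and 31.5 in NanogKO:Esrrb:Nanog. It rose by 0.56 ± 0.11 (adjusted p = 0.00014) in NanogKO:Esrrb and by 0.37 ± 0.11 (0.0054) in NanogKO:Esrrb:Nanog. The change from NanogKO:Esrrb to NanogKO:Esrrb:Nanog was not called. In the 9 fits without a library it ran from -0.25 to -0.15 (adjusted p from 0.17 to 0.44). The most accessible Sox1 region, chr8:12396612-12397848 inside the gene, measured 47.7, 36.4 and 32.9 CPM in NanogKO, 41.2, 35.4 and 35.8 in NanogKO:Esrrb, then 39.7, 33.0 and 29.1 in NanogKO:Esrrb:Nanog. Here the 3 groups overlapped, with log2 changes of -0.06 (0.77), -0.20 (0.23) and -0.14 (0.46).

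At the Sox1 start, 2 regions overlapped the promoter window. The region chr8:12395492-12396055 had 10.4, 9.55 and 9.75 CPM in NanogKO, 14.3, 10.2 and 10.6 in NanogKO:Esrrb, then 21.0, 19.8 and 12.5 in NanogKO:Esrrb:Nanog. NanogKO:Esrrb:Nanog replicate 3 was the lowest of its group and below NanogKO:Esrrb replicate 1. The region rose by 0.84 ± 0.16 (adjusted p = 7.9e-05) against NanogKO and by 0.60 ± 0.16 (0.0072) against NanogKO:Esrrb, the latter failing without NanogKO:Esrrb:Nanog replicate 1 (0.061). The other, chr8:12395154-12395327, rose by 0.40 ± 0.15 (0.027) against NanogKO, from 6.41, 5.58 and 5.33 CPM to 9.10, 6.87 and 6.92, and failed without NanogKO replicate 2 or 3 or NanogKO:Esrrb:Nanog replicate 1 (up to 0.20). The RefSeq promoter window (GRCm38.p6, chr8:12395269-12395568, plus strand) is shown as the start sequence of the gene whose regions rose most often, with a match to the POU octamer ATGCAAA in capitals at bases 269 to 275, counted from 1 at the 5′ end of the window.
Sox1: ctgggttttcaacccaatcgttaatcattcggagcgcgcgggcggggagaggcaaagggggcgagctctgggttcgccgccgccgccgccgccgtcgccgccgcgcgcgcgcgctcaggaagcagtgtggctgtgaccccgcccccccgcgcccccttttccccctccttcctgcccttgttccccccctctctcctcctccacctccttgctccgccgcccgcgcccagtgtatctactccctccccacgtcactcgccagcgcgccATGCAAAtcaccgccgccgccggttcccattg
The match lies at chr8:12395537-12395543, inside the region chr8:12395492-12396055, and 4.63% of all 32851 RefSeq promoter windows of this length hold the same letters on either strand. The window has a GC content of 70.7% and 37 CpG dinucleotides.

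The sum over the 22 Sox1 regions was 211, 190 and 193 CPM in NanogKO, 227, 215 and 205 in NanogKO:Esrrb, then 240, 231 and 217 in NanogKO:Esrrb:Nanog. All NanogKO:Esrrb:Nanog values exceeded all NanogKO values, while NanogKO:Esrrb overlapped both. The sum rose by 0.21 ± 0.06 (adjusted p = 0.0085) in NanogKO:Esrrb:Nanog against NanogKO, and without NanogKO replicate 2 the value was 0.18 (0.051). The changes of 0.12 ± 0.06 (0.14) and 0.09 ± 0.06 (0.31) at the steps through NanogKO:Esrrb did not pass.

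**Figure D3:**
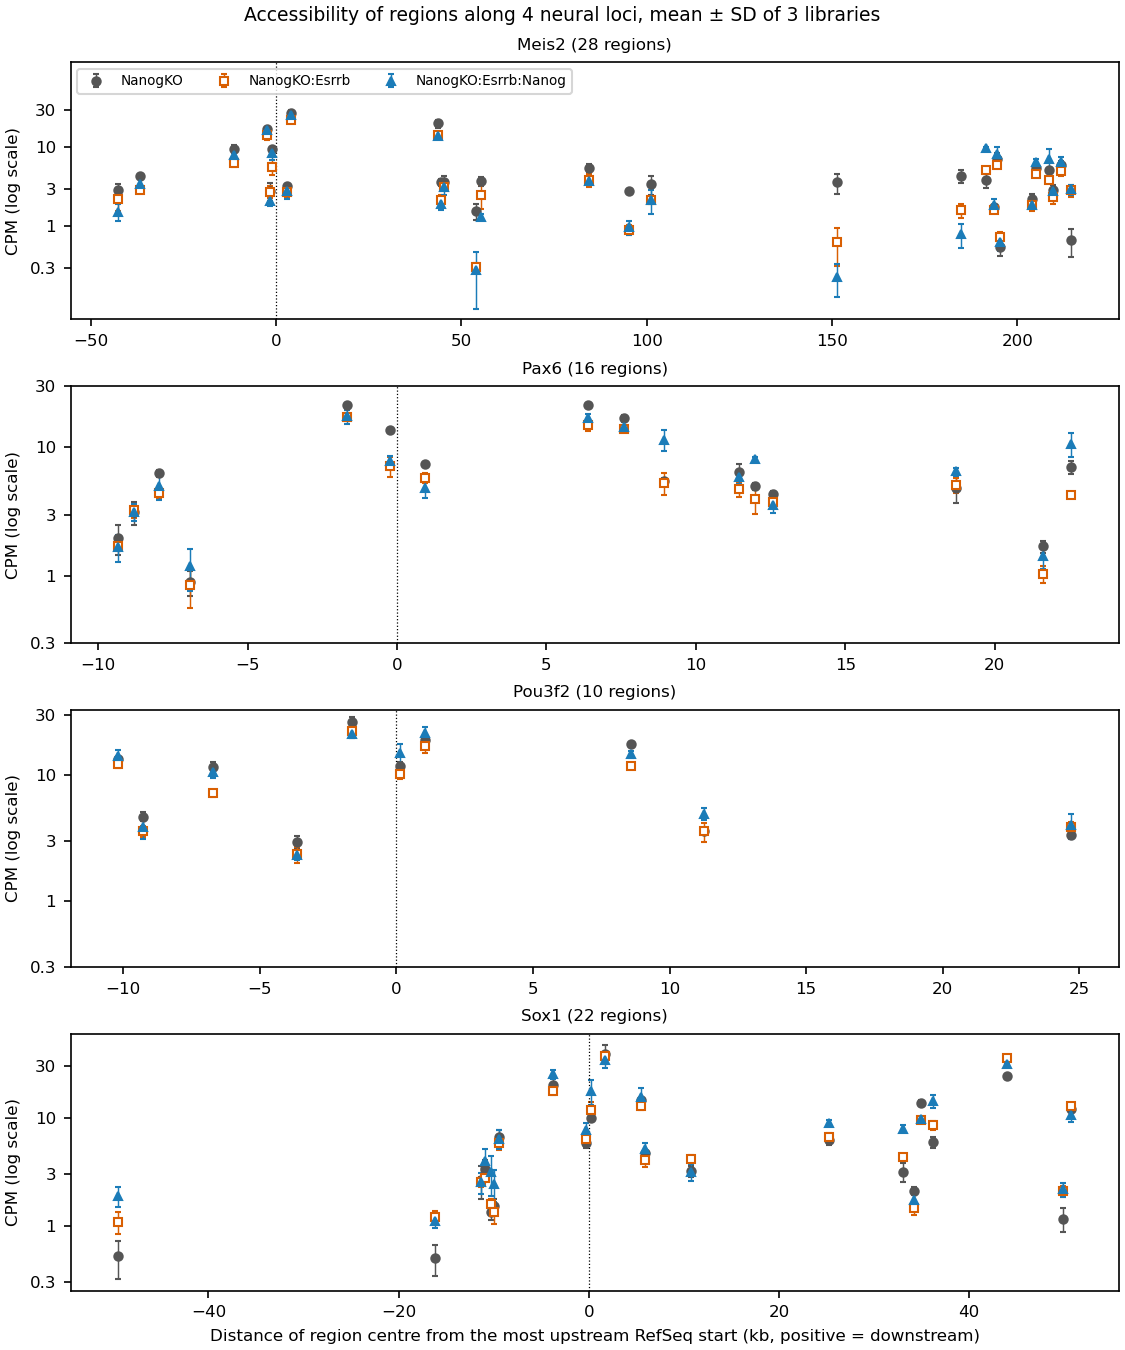
Accessibility of each region of Meis2, Pax6, Pou3f2 and Sox1 in CPM on a log axis, mean ± SD of 3 libraries per group. The horizontal axis is distance in kb from the most upstream start given by the RefSeq promoter windows, positive downstream. For Meis2 (minus strand) that start, chr2:116064619, lies inside the span, which ends at 116067537. Meis2 regions drawn just upstream of it are therefore still in the gene span. At Sox1 the regions near 33 and 36 kb downstream are highest in NanogKO:Esrrb:Nanog, and at Meis2 several regions along the gene are lowest in NanogKO:Esrrb:Nanog or NanogKO:Esrrb.

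Neurog2 encodes a proneural basic helix-loop-helix factor that drives neuronal commitment, and spans chr3:127632733-127635636 (gene 11924). In NanogKO:Esrrb against NanogKO, 3 of its 8 regions were lower and none higher (17% and 20% of all regions). The region chr3:127627826-127628067, 4666 bp outside, had 4.85, 5.29 and 5.45 CPM in NanogKO, 3.08, 2.73 and 3.06 in NanogKO:Esrrb, then 4.11, 4.67 and 4.22 in NanogKO:Esrrb:Nanog. No groups overlapped, and the NanogKO:Esrrb libraries were the lowest. It fell by 0.82 ± 0.16 (adjusted p = 0.00018) in NanogKO:Esrrb and was higher by 0.55 ± 0.16 (0.014) in NanogKO:Esrrb:Nanog than there, the latter failing without NanogKO:Esrrb replicate 2 (0.055). The region chr3:127625338-127625649, 7084 bp outside, had 10.2, 10.0 and 11.5 CPM, then 9.26, 7.55 and 8.82, then 15.8, 16.3 and 11.9. It rose above both other groups in NanogKO:Esrrb:Nanog, by 0.47 ± 0.14 (0.0052) against NanogKO and 0.78 ± 0.14 (0.00021) against NanogKO:Esrrb. The change of -0.31 (0.078) between the first 2 groups passed only without NanogKO:Esrrb:Nanog replicate 3 (0.038).

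The region over the gene itself, chr3:127633149-127634555, had the highest CPM of all 127 as a mean over the 9 libraries, although in NanogKO:Esrrb the Meis1 region chr11:18957020-18958569 was higher (44.5 against 37.5 CPM). The Neurog2 region had 43.5, 42.3 and 44.9 CPM in NanogKO, 39.7, 33.8 and 39.1 in NanogKO:Esrrb, then 44.7, 44.7 and 40.5 in NanogKO:Esrrb:Nanog. The NanogKO:Esrrb libraries were the lowest, but the log2 changes of -0.22 (adjusted p = 0.12), -0.01 (0.95) and 0.21 (0.16) did not pass. The sum over 8 regions was 95.6, 101 and 99.8 CPM in NanogKO, 84.8, 77.0 and 83.7 in NanogKO:Esrrb, then 94.4, 98.6 and 89.4 in NanogKO:Esrrb:Nanog. The NanogKO:Esrrb values lay below those of both other groups. The sum fell by 0.27 ± 0.06 (0.0021) in NanogKO:Esrrb and was 0.20 ± 0.06 (0.027) higher in NanogKO:Esrrb:Nanog than there. This second call failed without NanogKO:Esrrb replicate 2 or 3 or NanogKO:Esrrb:Nanog replicate 1 or 2 (up to 0.13).

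Pou3f2 encodes a POU-domain factor (BRN2) of neural progenitors and neurons and spans chr4:22482095-22488366 (gene 18992). Of its 10 regions, 2 were lower and none higher in NanogKO:Esrrb against NanogKO. Its lower share of 20% was near the 17% of all regions, of which 20% were higher. In the step to NanogKO:Esrrb:Nanog 4 were higher and none lower, where 12.6% of all regions were higher and 12% lower. The region chr4:22494925-22495247, 6559 bp outside, had 12.6, 12.1 and 10.6 CPM in NanogKO, 7.11, 6.77 and 7.74 in NanogKO:Esrrb, then 10.9, 11.4 and 9.51 in NanogKO:Esrrb:Nanog. All NanogKO:Esrrb values were below the rest, and the other 2 groups overlapped. It fell by 0.71 ± 0.13 (adjusted p = 9.7e-05) and was higher again by 0.55 ± 0.13 (0.0032), while NanogKO:Esrrb:Nanog and NanogKO differed by -0.15 (0.35). The region over the start, chr4:22487985-22488474, had 12.6, 10.7 and 12.1 CPM, then 11.1, 9.51 and 9.93, then 14.4, 18.1 and 12.6. It rose by 0.55 ± 0.13 (0.0041) from NanogKO:Esrrb to NanogKO:Esrrb:Nanog. Its rise of 0.34 ± 0.13 (0.038) against NanogKO failed without NanogKO replicate 2 or 3 or NanogKO:Esrrb:Nanog replicate 2 (up to 0.28). The promoter window (GRCm38.p6, chr4:22488317-22488616, minus strand), with 158 bases in this region, is shown as the other start sequence over which accessibility rose between those groups.
Pou3f2: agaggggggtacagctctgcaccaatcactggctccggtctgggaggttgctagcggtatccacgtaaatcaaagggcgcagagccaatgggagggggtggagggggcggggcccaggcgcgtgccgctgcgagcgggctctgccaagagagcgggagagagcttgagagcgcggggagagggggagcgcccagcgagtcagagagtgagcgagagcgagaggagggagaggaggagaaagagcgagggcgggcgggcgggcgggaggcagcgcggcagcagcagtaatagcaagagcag
It has a GC content of 67.7% and 24 CpG dinucleotides, and holds no match to the 4 motifs searched.

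The Pou3f2 region of highest mean CPM over the 9 libraries, chr4:22489317-22490660, lies 951 bp outside the span. In NanogKO:Esrrb:Nanog alone the region chr4:22486823-22487813 was slightly higher (21.6 against 21.4 CPM). The former region had 29.0, 26.9 and 24.2 CPM in NanogKO, 23.8, 19.3 and 24.2 in NanogKO:Esrrb, then 22.7, 19.6 and 21.9 in NanogKO:Esrrb:Nanog. Its value in NanogKO:Esrrb:Nanog was lower than in NanogKO by 0.32 on the log2 scale (SE 0.12, adjusted p = 0.028), which failed without NanogKO replicate 1 or 2 or NanogKO:Esrrb:Nanog replicate 2 (up to 0.12). The change of -0.25 in NanogKO:Esrrb (0.098) passed with the replicate number as a block (0.043). A weaker region, chr4:22477015-22477224, at 4871 bp, had 3.73, 3.40 and 3.65 CPM, then 3.30, 3.15 and 4.31, then 5.47, 4.46 and 4.96. All NanogKO:Esrrb:Nanog values were the highest, and the region rose by 0.47 ± 0.17 against both NanogKO (0.022) and NanogKO:Esrrb (0.04). Both calls failed without NanogKO:Esrrb:Nanog replicate 1, the first also without NanogKO replicate 2 and the second without NanogKO:Esrrb replicate 1 or 2 (up to 0.091 and 0.15).

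Summed over 10 regions, Pou3f2 had 127, 125 and 125 CPM in NanogKO, 106, 99.3 and 114 in NanogKO:Esrrb, then 115, 124 and 121 in NanogKO:Esrrb:Nanog. The groups were separate, with NanogKO:Esrrb lowest, but the change of -0.07 ± 0.06 from NanogKO to NanogKO:Esrrb:Nanog did not pass (adjusted p = 0.37). The sum fell by 0.24 ± 0.06 (adjusted p = 0.0041) in NanogKO:Esrrb. It was 0.17 ± 0.06 (0.047) higher in NanogKO:Esrrb:Nanog than there, a call that failed when any 1 library other than NanogKO:Esrrb replicate 3 or NanogKO:Esrrb:Nanog replicate 1 was left out (up to 0.17).

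**Figure D4:**
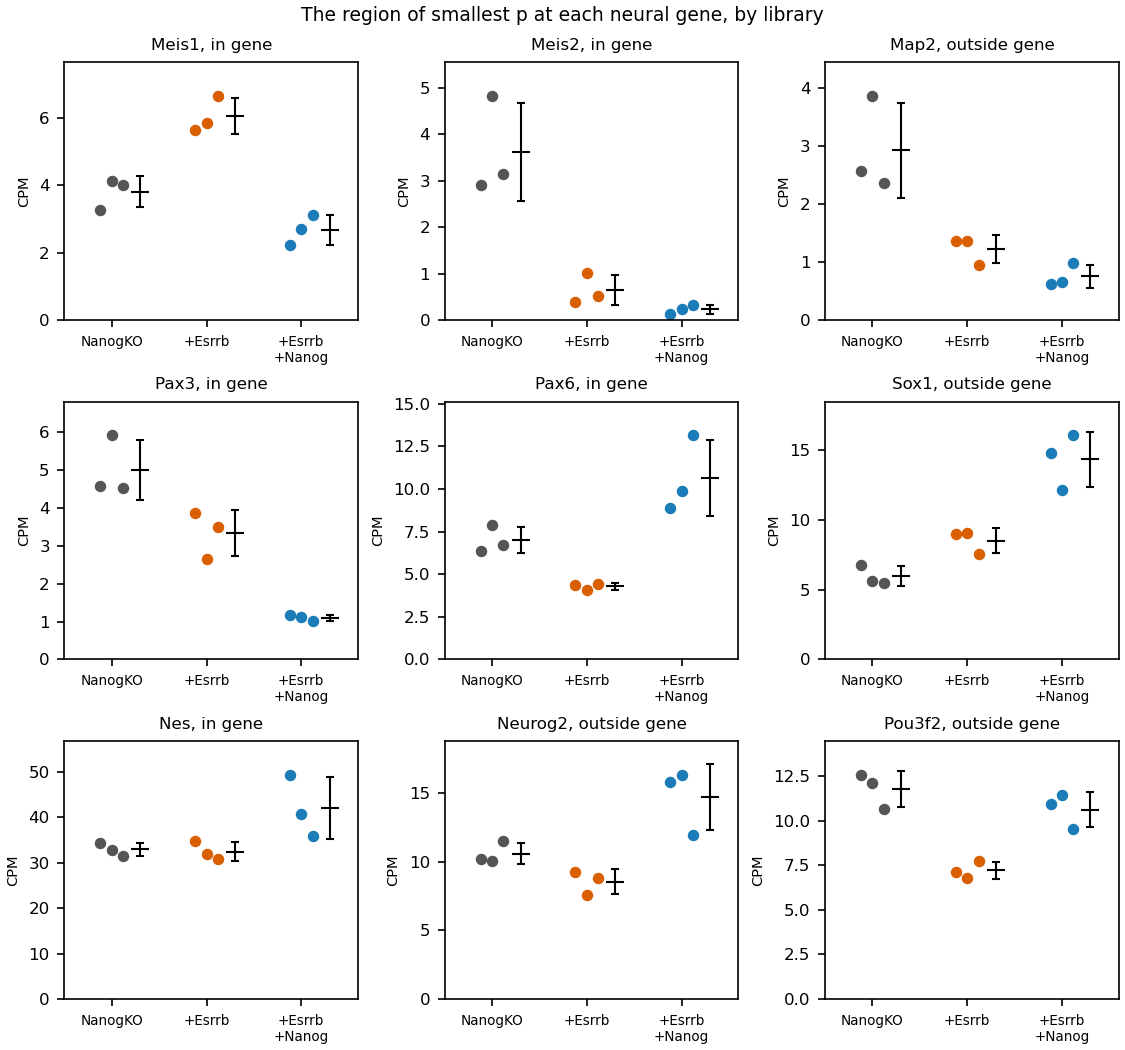
CPM in each of the 9 libraries, on axes from 0, for the region of smallest p in any of the 3 comparisons at each gene, with the mean ± SD of each group beside its points; +Esrrb and +Esrrb +Nanog stand for NanogKO:Esrrb and NanogKO:Esrrb:Nanog. The group means of the Meis2, Map2 and Pax3 regions are lower and that of the Sox1 region is higher at each step, and the Meis1 region is highest and the Pax6 and Pou3f2 regions are lowest in NanogKO:Esrrb.

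Meis1 and Meis2 encode TALE-class homeobox cofactors that act with PBX and HOX proteins in hindbrain, eye and limb, and both are used in neural and in many non-neural tissues. Meis2 spans chr2:115861264-116067537 (gene 17536) and had the strongest decreases against NanogKO among the 127 regions. The region chr2:115913072-115913320, inside the gene and in the NanogKO peak list alone, had 119, 263 and 155 counts in NanogKO, 20, 60 and 30 in NanogKO:Esrrb, then 6, 8 and 19 in NanogKO:Esrrb:Nanog. In CPM these were 2.90, 4.83 and 3.14, then 0.397, 1.00 and 0.522, then 0.124, 0.235 and 0.329, with no overlap. NanogKO:Esrrb was 5.59-fold lower than NanogKO (log2 -2.48 ± 0.30, adjusted p = 2.1e-07), and NanogKO:Esrrb:Nanog was 15.4-fold lower (-3.95 ± 0.35, 5.6e-10). The step between them, -1.46 ± 0.39 (0.0086), failed without NanogKO:Esrrb replicate 2 or NanogKO:Esrrb:Nanog replicate 1 (up to 0.091).

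Besides it, 3 regions within Meis2, chosen here after their values were seen, fell more than 2-fold in each of the other groups against NanogKO. The region chr2:116009263-116009615 did so in NanogKO:Esrrb:Nanog alone (log2 -1.50, adjusted p = 5e-06). The region chr2:116010599-116010759 went from 1.39, 2.00 and 1.34 CPM in NanogKO to 0.298, 0.352 and 0.278 in NanogKO:Esrrb (log2 -2.34 ± 0.33, adjusted p = 2.8e-06). The region chr2:115969261-115969719 went from 2.85, 2.88 and 2.74 to 0.795, 1.04 and 0.905 (-1.62 ± 0.22, 2.1e-06). The region chr2:115879590-115879993 went from 3.59, 5.27 and 4.30 to 1.63, 1.29 and 1.91 (-1.45 ± 0.22, 9.1e-06). All 3 were also lower in NanogKO:Esrrb:Nanog than in NanogKO, at log2 changes of -2.61, -1.53 and -2.42, and these 6 calls held in all 9 fits that left out a library. Against these, chr2:115849899-115850380, 10884 bp outside and likewise chosen after its values were seen, opened from 0.488, 0.974 and 0.568 CPM in NanogKO to 2.84, 3.38 and 2.40 in NanogKO:Esrrb, then 3.40, 2.52 and 2.94 in NanogKO:Esrrb:Nanog, a rise of 2.06 ± 0.25 (2.4e-07) and 2.10 ± 0.25 (8.3e-08).

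The region chr2:115872938-115873329 inside Meis2 rose with each added label, from 2.98, 4.52 and 4.07 CPM in NanogKO to 5.09, 5.73 and 4.70, then to 9.54, 9.83 and 10.2. The step to NanogKO:Esrrb:Nanog was 0.93 ± 0.15 (adjusted p = 0.00011). The first step, 0.42 ± 0.16 (0.04), failed without NanogKO replicate 1 or 3 or NanogKO:Esrrb replicate 1 or 2 (up to 0.23). The most accessible Meis2 region, chr2:116060145-116061055, had 28.9, 29.3 and 24.7 CPM, then 24.8, 20.3 and 22.1, then 24.4, 27.7 and 24.3. Of the NanogKO:Esrrb libraries only replicate 1 reached the NanogKO range, which NanogKO:Esrrb:Nanog overlapped. Its decrease of 0.30 ± 0.12 in NanogKO:Esrrb (log2, 0.042) failed without NanogKO replicate 1 or 2 or NanogKO:Esrrb replicate 2 or 3 (up to 0.18).

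Summed over 28 regions, Meis2 had 165, 199 and 178 CPM in NanogKO, 139, 136 and 147 in NanogKO:Esrrb, then 146, 162 and 155 in NanogKO:Esrrb:Nanog. NanogKO replicate 2 was the highest, and all NanogKO values exceeded those of both other groups. The sum fell by 0.36 ± 0.07 (adjusted p = 0.00037) and by 0.23 ± 0.07 (0.0092), and without NanogKO replicate 2 the second value was -0.15 (0.089). By region and against NanogKO, 13 were lower and 2 higher in NanogKO:Esrrb (17% and 20% of all regions). In NanogKO:Esrrb:Nanog 10 were lower and 3 higher (24.4% and 24.9%). No counted region overlapped the RefSeq promoter window of Meis2.

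Meis1, at chr11:18880428-19019651 (gene 17268), changed in single regions and not in its sum. Its most accessible region, chr11:18957020-18958569 inside the gene, measured 28.4, 26.7 and 29.0 CPM in NanogKO, 45.8, 44.9 and 42.8 in NanogKO:Esrrb, then 42.7, 40.4 and 39.5 in NanogKO:Esrrb:Nanog. All NanogKO values were far below the rest. It rose by 0.67 ± 0.11 (adjusted p = 1.4e-05) and 0.55 ± 0.11 (0.00011), and its share of the counts of the 22 Meis1 regions went from 17.8% to 27.3% and 25.6%. The region chr11:18948713-18949706, less than 10 kb away in the same gene, was highest in NanogKO:Esrrb with 5.62, 5.84 and 6.65 CPM, against 3.27, 4.12 and 4.01 in NanogKO and 2.22, 2.70 and 3.11 in NanogKO:Esrrb:Nanog. It rose by 0.66 ± 0.17 (0.0024) in NanogKO:Esrrb and was lower by 1.17 ± 0.17 on the log2 scale (3e-05) in NanogKO:Esrrb:Nanog than there. Its difference of -0.50 (0.019) between NanogKO:Esrrb:Nanog and NanogKO failed without NanogKO replicate 2 or 3 or NanogKO:Esrrb:Nanog replicate 1 (up to 0.10).

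The region over the Meis1 start, chr11:19018821-19019285, had 11.8, 10.7 and 10.5 CPM in NanogKO, 9.42, 7.44 and 8.80 in NanogKO:Esrrb, then 10.2, 9.42 and 8.16 in NanogKO:Esrrb:Nanog. It fell by 0.36 ± 0.13 (adjusted p = 0.034) in NanogKO:Esrrb, a call that failed without any 1 NanogKO library and without NanogKO:Esrrb replicate 2 or 3 (up to 0.17). The promoter window (GRCm38.p6, chr11:19018920-19019219, minus strand) lies wholly in this region and is shown as the other start sequence over which accessibility fell, with the SOX core CATTGT in capitals at bases 203 to 208.
Meis1: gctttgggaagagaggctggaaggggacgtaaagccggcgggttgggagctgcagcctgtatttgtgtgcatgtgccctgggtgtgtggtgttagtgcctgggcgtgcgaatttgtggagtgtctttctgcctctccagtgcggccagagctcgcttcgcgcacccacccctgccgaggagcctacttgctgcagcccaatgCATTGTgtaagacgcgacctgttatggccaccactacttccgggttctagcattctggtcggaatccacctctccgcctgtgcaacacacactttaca
Of all windows, 12.6% hold these letters on either strand. The sum over the Meis1 regions was 171, 175 and 167 CPM in NanogKO, 184, 179 and 186 in NanogKO:Esrrb, then 165, 175 and 169 in NanogKO:Esrrb:Nanog. The NanogKO:Esrrb values were the highest, but the changes of 0.10 ± 0.05 (0.18), -0.01 ± 0.05 (0.88) and -0.11 ± 0.05 (0.16) did not pass.

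Nes encodes nestin, an intermediate filament protein of neural progenitors, and spans chr3:87971093-87980451 (gene 18008). It had 2 regions, both inside or over the gene and both highly accessible. The region chr3:87974116-87974936 had 34.4, 32.8 and 31.6 CPM in NanogKO, 34.7, 31.8 and 30.8 in NanogKO:Esrrb, then 49.3, 40.6 and 35.9 in NanogKO:Esrrb:Nanog. All NanogKO:Esrrb:Nanog values were the highest, although spread widely. It rose by 0.35 ± 0.12 (adjusted p = 0.016) against NanogKO and 0.37 ± 0.12 (0.023) against NanogKO:Esrrb. Without NanogKO:Esrrb:Nanog replicate 1 neither call passed, nor did the first without NanogKO replicate 2 or 3, nor the second without NanogKO:Esrrb replicate 2 or 3 (up to 0.12 and 0.15).

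The region over the Nes start, chr3:87970862-87972132, had 32.9, 28.1 and 26.9 CPM, then 28.7, 25.9 and 25.2, then 33.2, 28.7 and 32.6 in the same order of groups. It passed no test, with 0.24 (adjusted p = 0.12) for NanogKO:Esrrb:Nanog against NanogKO:Esrrb, though with the replicate number as a block this adjusted p was 0.048. The sum of both Nes regions was 71.3, 67.1 and 64.8 CPM, then 70.1, 65.7 and 63.0, then 84.3, 73.7 and 75.5. It rose by 0.20 ± 0.07 (0.022) against NanogKO and 0.23 ± 0.07 (0.024) against NanogKO:Esrrb. Leaving out the same libraries as for the region inside the gene ended these calls (up to 0.12 and 0.11).

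Map2 encodes a microtubule-associated protein of neuronal dendrites. Its span is chr1:66175202-66442583 (gene 17756), with 8 regions. Against NanogKO, 3 of these were lower and 2 higher in each of the other groups (37.5% and 25%). Lower and higher shares of all regions were 17% and 20% for NanogKO:Esrrb. For NanogKO:Esrrb:Nanog they were 24.4% and 24.9%, the latter near the 25% of Map2 regions that were higher there. The region chr1:66223364-66223615 inside the gene measured 2.80, 3.66 and 3.08 CPM in NanogKO, 1.21, 1.22 and 1.04 in NanogKO:Esrrb, then 1.31, 1.29 and 1.37 in NanogKO:Esrrb:Nanog. All NanogKO values were more than 2 times any other value. It fell by 1.46 ± 0.21 (adjusted p = 2.9e-06) and 1.27 ± 0.21 (1.2e-05) on the log2 scale. The region chr1:66443014-66443328, 431 bp outside the span, had 2.56, 3.86 and 2.35 CPM, then 1.35, 1.36 and 0.939, then 0.622, 0.645 and 0.986. It fell by 1.27 ± 0.24 (0.00015) and 1.94 ± 0.26 (6.6e-07) against NanogKO. The step between the other 2 groups, -0.67 ± 0.27 (0.073), passed without NanogKO:Esrrb:Nanog replicate 3 (0.021).

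The region over the Map2 start, chr1:66174846-66175746, held 53.7% of the counts of the gene's regions in NanogKO. It had 19.4, 18.9 and 20.9 CPM in NanogKO, 16.7, 14.5 and 17.3 in NanogKO:Esrrb, then 20.3, 23.6 and 17.2 in NanogKO:Esrrb:Nanog. The NanogKO:Esrrb values were below NanogKO, but neither -0.29 (adjusted p = 0.07) nor the 0.33 (0.051) from there to NanogKO:Esrrb:Nanog passed. With the replicate number as a block the second adjusted p was 0.036, and without NanogKO:Esrrb:Nanog replicate 3 both passed (0.032 and 0.0061). Summed, Map2 had 37.6, 40.9 and 41.7 CPM in NanogKO, 31.4, 31.8 and 32.5 in NanogKO:Esrrb, then 32.7, 35.9 and 32.5 in NanogKO:Esrrb:Nanog. All NanogKO values exceeded the rest. The sum fell by 0.33 ± 0.07 (0.0019) and 0.25 ± 0.07 (0.0092), and both calls held in every fit without a library.

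RefSeq gave 9 promoter windows for 8 of the 9 genes (2 for Pax6 and none for Pax3), with 10 to 37 CpG dinucleotides each against a median of 7 over all windows. Their GC content was 46.3% to 77.7% against a median of 52.7%, with Meis2 (51%) and the second Pax6 window (46.3%) below it. These values were not tested. The motifs searched on both strands were the estrogen-related receptor element AAGGTCA, the POU octamer ATGCAAA, the SOX core CATTGT and the MEIS core TGACAG. Apart from the Sox1 and Meis1 matches above, only the second Pax6 window held one, a MEIS core on the minus strand, in a window that no counted region overlapped. AAGGTCA was in none of the 9 windows and in 4.72% of all, and TGACAG is in 19.2% of all. The 8 regions that overlap a promoter window include no region of Pax3 or Meis2. Of these 8, 2 were lower and none higher in NanogKO:Esrrb against NanogKO (17% and 20% of all regions). Against NanogKO, NanogKO:Esrrb:Nanog had 3 higher and 1 lower (24.9% and 24.4%), and against NanogKO:Esrrb it had 2 higher and none lower (12.6% and 12%).

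A wider list of 42 other genes of neural development, among them Sox2, Olig2 and Tubb3, held 497 regions. Sox2 is also among the 10 stem cell genes. In NanogKO:Esrrb against NanogKO 115 of the 497 regions were lower and 53 higher (23.1% and 10.7%, against 17% and 20% of all regions). The median was -0.19. On summed counts 19 of the 42 genes fell and 5 rose, where 16.9% and 17.6% of all genes did. In NanogKO:Esrrb:Nanog against NanogKO 118 were lower and 109 higher (23.7% and 21.9%, near the 24.4% and 24.9% of all regions, median -0.03). There 12 of the 42 genes were lower and 9 higher, against 24.1% and 24.4% of all genes. Against NanogKO:Esrrb 115 were higher and 32 lower (23.1% and 6.44%, against 12.6% and 12% of all regions, median 0.15). Here 11 of the 42 genes were higher and 1 lower, against 10.6% and 10.2% of all genes. The summed level of the 42 genes was 3654 to 3748 CPM in NanogKO, 3351 to 3544 in NanogKO:Esrrb, then 3693 to 3852 in NanogKO:Esrrb:Nanog, so NanogKO:Esrrb lay below both.

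Marker regions of other cell types were counted in the same way, and their part in these results was not tested. In NanogKO:Esrrb against NanogKO, 8 of 44 regions at 5 mesendoderm genes were lower and 2 higher (18.2% and 4.55%, median -0.19), and 11 of 54 at 6 fibroblast genes were lower and 6 higher (20.4% and 11.1%, median -0.13). In the same comparison 13 of 85 regions at 8 primitive endoderm genes were lower and 19 higher (15.3% and 22.4%, median 0.01), and 13 of 145 at the stem cell genes were lower and 70 higher (8.97% and 48.3%, median 0.36). Beside the 17% lower and 20% higher of all regions, the lower shares of the mesendoderm, fibroblast and primitive endoderm regions were near the background. The higher shares of the mesendoderm and fibroblast regions were below the background, as at the neural regions. Of the 44 mesendoderm regions 35 were negative, and their median was near the -0.22 of the 127 neural regions. The summed mesendoderm level was 332 to 340 CPM in NanogKO, 286 to 299 in NanogKO:Esrrb, then 295 to 314 in NanogKO:Esrrb:Nanog. The fibroblast level was 207 to 215, 190 to 198 and 188 to 198, and the primitive endoderm level 487 to 516, 475 to 488 and 505 to 523. From NanogKO:Esrrb to NanogKO:Esrrb:Nanog, the regions higher and lower numbered 9 and 1 for mesendoderm (20.5% and 2.27%) and 6 and 4 for fibroblast (11.1% and 7.41%). They numbered 18 and 8 for primitive endoderm (21.2% and 9.41%) and 29 and 14 for stem cell genes (20% and 9.66%). Of all regions, 12.6% were higher and 12% lower. The mesendoderm shares were near those of the 127 neural regions (20.5% and 4.72%).

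For each gene called on its sum except Map2, 1 other gene with 3 or more regions was sought whose centred log2 profile over the 9 libraries was nearest, among 13612 genes (13613 for Nes). The nearest were Cd47 for Pou3f2 (root mean square difference 0.024), Tbrg4 for Sox1 (0.026), Rtn4rl2 for Neurog2 (0.027), Efcab10 for Meis2 (0.035), Egr3 for Nes (0.042) and Mdfic for Pax6 (0.045). None of these is one of the 9.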

How the data were processed

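Raw counts, whole numbers per region and library with no normalization, were taken from the authors' deposited table on mm10. The deposited peak lists, 1 per group, carry the authors' peak-caller score, which was not used; merging the 3 lists gave the counted regions exactly. Per the submitters' processing notes the tools, with no role stated, were MACS2 2.2.0, bedtools 2.26.0, Bowtie2 and cutadapt, besides SAMtools 1.4.1, bcl2fastq 2.19.1 and deepTools 4.4.0. The counting tool and any duplicate removal or transposase shift are not given in the sources used here. The design text names 12 samples, of which 9 libraries were analysed here.

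Each region was given to its nearest protein-coding gene by RefSeq GRCm38 spans. edgeR 4.0.16 (R 4.3.3) was run on all 9 libraries with TMM scaling, filterByExpr (minimum count 10), 1 mean per group and quasi-likelihood F tests on 6 residual degrees of freedom. Benjamini-Hochberg adjustment ran over 157439 regions, or over 18905 genes for counts summed per gene, with calls at an adjusted p below 0.05. The script was tested on simulated data. CPM values carry the TMM scaling, and those of gene sums are scaled to the counts in regions within 50 kb of a gene.

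For each gene the text names the region of smallest p in each comparison, the region of highest mean CPM and those over the RefSeq promoter window. The genes and lists were chosen with earlier results of these data known. Alternatives were DESeq2 1.42.0, other scalings, no filter, 2 groups at a time, a 10 kb limit, a replicate block and leaving out each library. Deviations of same-numbered libraries from their group means correlated at 0.117 to 0.152 between NanogKO:Esrrb and NanogKO. Between NanogKO:Esrrb:Nanog and NanogKO:Esrrb they correlated at 0.105 to 0.146. Between NanogKO:Esrrb:Nanog and NanogKO the correlations were 0.002 to 0.136. Libraries of different numbers correlated at -0.095 to -0.048, -0.098 to -0.032 and -0.091 to 0.045 in the same order of comparisons. The main fits held no replicate block, so their p-values use no pairing by replicate number. The block was fitted only as an alternative. No label ties a number to a shared culture or day, and the replicate 3 titles alone carry a second number whose meaning is not stated. No 2 replicates agreed within sampling noise. The gene of nearest profile to Map2 is not reported here.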

Additional observations from a re-analysis of the deposited data

How the results depend on the processing

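DESeq2, median-of-ratios (RLE) size factors, no filter and the replicate block kept every count of regions and genes within 1.5 times its value. With the replicate number as a block, the higher and lower regions numbered 15 and 41 for NanogKO:Esrrb against NanogKO, 30 and 32 for NanogKO:Esrrb:Nanog against NanogKO, and in the last comparison, of NanogKO:Esrrb:Nanog and NanogKO:Esrrb, 30 and 6, with 5, 4 and 4 genes called. Beside the 3 regions for which the blocked value is given in the text, the block changed no call among 92 results checked singly. These were 65 results of named regions and 27 of gene sums. Within 10 kb instead of 50 kb, 7 regions were higher in NanogKO:Esrrb than in NanogKO. The 10 kb limit takes in fewer regions and no share is given here, so this count cannot be set against the 15 within 50 kb. For NanogKO:Esrrb:Nanog against NanogKO:Esrrb, scaling by library totals alone gave 16 higher and 11 lower regions and 1 gene, and fitting only the 2 groups also gave 1 gene.

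Leaving out 1 library gave 11 to 15 higher and 21 to 43 lower regions and 5 to 6 genes for NanogKO:Esrrb against NanogKO. It gave 20 to 30 higher, 21 to 31 lower and 1 to 5 genes for NanogKO:Esrrb:Nanog against NanogKO, and 15 to 27 higher, 5 to 9 lower and 0 to 3 genes for NanogKO:Esrrb:Nanog against NanogKO:Esrrb. Without NanogKO:Esrrb:Nanog replicate 3, which stood apart, these last 2 comparisons had 29 and 31, and 27 and 9. Fits without a library have fewer degrees of freedom; no other cause was tested.

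The 65 region results and 27 gene sum results checked singly do not take in every comparison of every named region. Among them 38 region results and 13 gene sum results were called, and none of those changed sign under any setting. The changes given below are among these results, and further calls that failed without a library are given with their genes. Leaving out a library ended 12 of these region calls and 7 of these gene sum calls, and other settings ended 4 and 4. Under library totals alone the calls lost in NanogKO:Esrrb:Nanog against NanogKO were Sox1 chr8:12395154-12395327 (adjusted p = 0.084), Pou3f2 chr4:22477015-22477224 (0.0753), the Pou3f2 start (0.123) and the Nes sum (0.101). Against NanogKO:Esrrb they were Nes chr3:87974116-87974936 (0.0533) and the sums of Pax6 (0.0738), Neurog2 (0.0572) and Pou3f2 (0.104). Fitting only 2 groups also ended the last 4 (0.058, 0.0687, 0.0528 and 0.0863). Library totals alone also added calls of lower values in NanogKO:Esrrb:Nanog against NanogKO. These were Sox1 chr8:12396612-12397848 (log2 -0.29, adjusted p = 0.0343), the Meis1 start (-0.35, 0.0283) and the Pax6 sum (-0.19, 0.0438). The Map2 start passed between NanogKO:Esrrb:Nanog and NanogKO:Esrrb with RLE (0.0454) and DESeq2 (0.0461). It also passed in NanogKO:Esrrb against NanogKO with only 2 groups fitted (0.0291). In the same set of results, values near 0 that did not pass the test changed sign as follows, on the log2 scale. Under library totals alone, the Map2 start in NanogKO:Esrrb:Nanog against NanogKO was -0.0555, the Pax6 region chr2:105666497-105667966 in NanogKO:Esrrb:Nanog against NanogKO:Esrrb -0.0857, and the Pax3 sum in NanogKO:Esrrb:Nanog against NanogKO -0.0565. The Neurog2 region over the gene in NanogKO:Esrrb:Nanog against NanogKO was 0.0031 with RLE and 0.003 with DESeq2. Leaving out 1 library, that region ran from -0.0334 to 0.0384, the Map2 start from -0.0739 to 0.1552, and the Pax6 region just named from -0.0598 to 0.1162. The Pax6 start between NanogKO:Esrrb:Nanog and NanogKO:Esrrb ran from -0.0156 to 0.234. In NanogKO:Esrrb against NanogKO, Sox1 chr8:12396612-12397848 ran from -0.161 to 0.1121, Nes chr3:87974116-87974936 from -0.0729 to 0.0145 and the Nes sum from -0.0689 to 0.0072. In NanogKO:Esrrb:Nanog against NanogKO, the Meis1 sum ran from -0.0347 to 0.0072 and the Pax3 sum from -0.0482 to 0.1161. Regions with few counts limit what can be seen: the lowest count of a region in a library was 6.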
